A study of Mus musculus with 4 samples.

Results

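Genes of the integrated stress response were followed in neural progenitors of control and *Stat3* conditional knockout (*Stat3* cKO) embryos: *Atf3*, *Atf4*, *Atf5*, *Ddit3*, *Trib3*, *Chac1*, *Asns*, *Nupr1*, *Sesn2* and *Slc7a11*. These 10 genes, of 21091 entries measured in each library, were matched by symbol. The pathway was selected on the values of *Atf5* and *Nupr1*, which were higher in the control than in the *Stat3* cKO library at embryonic day 11 (E11), so the values of that comparison are given as a description. All 10 had a mean of at least 1 FPKM (fragments scaled to transcript length and to the mapped fragments of the library) over the 4 libraries, the minimum set for the comparisons across genes, and none was at 0 in any library.

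The integrated stress response is the pathway by which cells answer a lack of amino acids, unfolded protein in the endoplasmic reticulum (ER), viral RNA or mitochondrial faults. The kinases GCN2, PERK, PKR and HRI phosphorylate the initiation factor eIF2, which slows protein synthesis in general while the mRNAs of *Atf4*, *Atf5* and *Ddit3* are translated more. ATF4 then switches on genes for amino acid uptake and synthesis and for the handling of oxidants, and, when stress persists, the cell death factor CHOP, the product of *Ddit3*. ATF4 is controlled in large part at translation, which mRNA levels do not measure.

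The libraries came from C57BL/6 mouse embryos at E11 or embryonic day 14 (E14), either control (CTL, labelled WT) or *Stat3* cKO, in which Nes-cre, a Cre recombinase under a rat Nestin promoter and enhancer, deletes floxed *Stat3* exons. *Stat3* cKO is shortened to cKO from here on. The progenitors were grown for 3 days in suspension with EGF and FGF as neurospheres, so every value is of cultured cells. The animal methods of the study give Nestin-Cre embryos with 1 floxed allele as control while its RNA-seq methods say wild-type, and whether the CTL libraries carried Cre was not settled here; if they did not, deletion of *Stat3* and presence of Cre cannot be told apart. Each of the 4 groups held 1 library, and how many embryos it pooled is not given in the sources used here. No spread between replicates exists, so no difference is tested and every ratio compares 2 libraries.

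*Stat3* itself was at 7.41 FPKM in E11 CTL, 6.74 in E11 cKO, 27.6 in E14 CTL and 9.55 in E14 cKO. Its level thus separated the E14 libraries and hardly the E11 libraries, although a value over the whole gene also counts exons that are not deleted. The study gives E14 as the day by which this Cre line has knocked out *Stat3* in neural progenitors. How complete the deletion was in the E11 library was not tested. The library labelled E11 cKO is named by its label throughout. *Xist* was at 13.6 FPKM in E14 CTL and 0.0370 in E14 cKO, and *Ddx3y*, on the Y chromosome, at 0.0569 and 25.1, so embryo sex and genotype cannot be told apart at E14; both E11 libraries had *Xist* and no *Ddx3y*. Of the 10 neural progenitor markers listed, *Sox2* and *Nes* lay between 41.2 and 284 FPKM in every library. The E11 libraries also held mesenchymal RNA, with *Col3a1* at 674 FPKM in CTL and 586 in cKO, against 7.64 and 4.29 at E14. The FPKM values summed to between 806587 and 1461770. From the smallest values that single fragments leave, the libraries were estimated to hold about 38400000 to 48200000 fragments.

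*Atf4*, which encodes the central transcription factor of the response, had the highest level of the 10 genes in every library. It was at 310 FPKM in E11 CTL, 208 in E11 cKO, 113 in E14 CTL and 76.4 in E14 cKO. *Atf5* encodes a close relative of ATF4 that is known to keep neural progenitors from differentiating. Its values were 99.8 FPKM in E11 CTL, 19.4 in E11 cKO, 9.11 in E14 CTL and 8.37 in E14 cKO, so that E11 CTL stood apart from the other libraries. *Ddit3* was at 93.3 FPKM in E11 CTL, 32.2 in E11 cKO, 15.9 in E14 CTL and 15.0 in E14 cKO. Its order of libraries was that of *Atf5* and, as deposited, of every other member but *Sesn2*. *Atf3*, a stress-induced factor of the same leucine zipper family, was the lowest of these 4 factors, at 7.50 FPKM in E11 CTL, 5.08 in E11 cKO, 0.645 in E14 CTL and 0.368 in E14 cKO. *Nupr1* encodes a small nuclear protein that is induced by many kinds of stress. It was at 71.4 FPKM in E11 CTL, 12.9 in E11 cKO, 0.600 in E14 CTL and 0.561 in E14 cKO, the widest range of the 10 genes as a fold.

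The other members encode enzymes, transporters and regulators downstream of these factors. *Asns*, the enzyme that makes asparagine, was at 286 FPKM in E11 CTL, 141 in E11 cKO, 55.6 in E14 CTL and 33.1 in E14 cKO. *Slc7a11*, the cystine and glutamate exchanger that supplies cysteine for glutathione, was at 140 FPKM in E11 CTL and 80.0 in E11 cKO, but at 1.64 and 1.63 in the E14 libraries. *Chac1*, an enzyme that breaks glutathione down, was at 57.2 FPKM in E11 CTL, 38.3 in E11 cKO, 2.16 in E14 CTL and 1.43 in E14 cKO. These metabolic genes were all highest in E11 CTL. *Trib3*, a pseudokinase that damps AKT and ATF4, had 24.7 FPKM in E11 CTL, 7.76 in E11 cKO, 0.410 in E14 CTL and 0.362 in E14 cKO. *Sesn2*, a leucine sensor that restrains mTORC1, had 70.3 FPKM in E11 CTL, 45.0 in E11 cKO, 9.88 in E14 CTL and 11.9 in E14 cKO. It was the only member of the 10 with a higher value in cKO than in CTL at either stage as deposited, and *Atf5*, *Ddit3*, *Nupr1* and *Slc7a11* joined it at E14 under upper-quartile scaling.

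**Figure D1:**
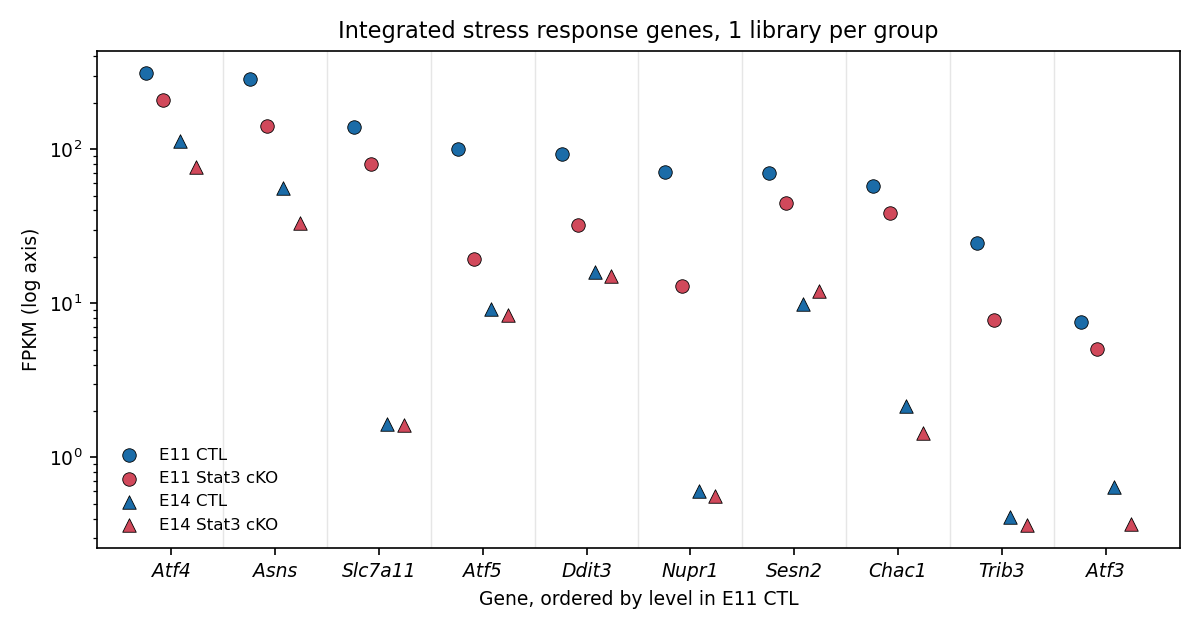
Level of each of the 10 genes in FPKM (log axis) in the 4 libraries, with 1 point per library, circles for E11 and triangles for E14, and CTL in blue and Stat3 cKO in red. In each gene the E11 CTL point is the highest and both E14 points lie below both E11 points.

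The sequences around the starts of these genes were examined because ATF4 binds, with C/EBP partners, to elements that share the letters TGATGNAA. In windows from 250 bases before to 50 after each RefSeq start (build GRCm38.p6), 6 of the 10 genes had this motif on either strand. It was in 54.5% of their 11 windows, against 3.97% of the 32851 windows in the whole table and 2.06% of the 11791 windows of genes averaging 1 FPKM or more. Among the other ATF4 and CHOP targets described below, 8 of the 29 genes with a window had it, or 20.0% of their 40 windows, and among ER chaperones 1 of 18 (5.56%). The windows below are shown to let the matches be compared. Each reads 5′ to 3′ on the gene's strand and is 30 bases long, with the motif in capitals, which appears as TTNCATCA where it lies on the opposite strand.
Atf3, chr1:191183425-191183454, minus strand: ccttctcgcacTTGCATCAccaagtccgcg
Chac1, chr2:119351038-119351067, plus strand: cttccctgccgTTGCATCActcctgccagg
Trib3, chr2:152344028-152344057, minus strand: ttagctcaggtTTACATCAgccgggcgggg
Asns, chr6:7693214-7693243, minus strand: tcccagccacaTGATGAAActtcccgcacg
Nupr1, chr7:126625562-126625591, minus strand: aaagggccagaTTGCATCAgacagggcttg
Slc7a11, chr3:50443651-50443680, minus strand: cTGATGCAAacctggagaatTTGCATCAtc
*Atf3*, *Chac1*, *Nupr1* and *Slc7a11* had the same 8 letters on 1 strand or the other, and *Slc7a11* had them on both, facing each other from bases -66 and -47, where -1 is the base just before the start and 1 the first base after it. The *Asns* match began at base -23, and the *Trib3* match lay just after its start, at base 15. The windows of *Atf4*, *Atf5*, *Ddit3* and *Sesn2* did not hold these letters. The letters TTCNNNGAA, which STAT factors bind, were present in 2 of the 10 genes, *Nupr1* and *Slc7a11*, both times as TTCTGGGAA and apart from the first motif. They were in 18.2% of the members' 11 windows, 8.30% of all windows and 6.61% of those of genes averaging 1 FPKM or more. The palindrome TGACGTCA, which the ATF and CREB family binds, was in none of the 10 genes. It was in 1.79% of all windows and 3.19% of those of genes averaging 1 FPKM or more. A match of letters describes the window and is not a measured site.

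At E11, all 10 genes were lower in cKO than in CTL, and 5 of them at least 2-fold. Over the 12430 genes with a ratio, 38.2% were lower at all, 1.12% at least 2-fold lower and 0.209% at least 2-fold higher. Because this comparison led to the choice of the members, nothing is read from the difference between these shares. The lowest ratios were those of *Nupr1*, which was 5.53-fold lower (log2 ratio -2.47), and *Atf5*, which was 5.14-fold lower (-2.36), the genes that had drawn attention to the pathway. *Trib3* was 3.18-fold lower (-1.67) and *Ddit3* 2.90-fold lower (-1.53). *Asns* was 2.04-fold lower (-1.03), a call that ended when each library was scaled to the same sum (-0.79), also without its 10 highest entries (-0.97). The remaining 5 genes formed a narrow band, from 1.48-fold lower for *Atf3* to 1.75-fold lower for *Slc7a11*, with *Atf4* at 1.49-fold and *Sesn2* at 1.56-fold. The median log2 ratio of the 10 was -0.92, and -0.73 without *Atf5* and *Nupr1*, while that of all genes was 0.059. *Atf4* mRNA was thus 67.1% of the CTL level where *Nupr1* was 18.1% and *Atf5* 19.5%. Beside these ratios, the summed level of 5 erythroid markers in cKO was 0.282 times CTL (1.61 against 5.71 FPKM), that of 10 microglia and leukocyte markers 0.654 times (8.33 against 12.7), that of 8 mesenchymal markers 0.879 times and that of 7 endothelial markers 0.985 times. The oligodendrocyte lineage sum was 1.29 times, the astrocyte sum 1.21 times, the neural progenitor sum 1.1 times and the neuron sum 1.04 times CTL. Single markers did not all follow the sums: 7 of the 10 neuron markers were lower in cKO. Of the astrocyte markers averaging 1 FPKM or more, 3 were lower and 3 higher. The neuron sum rested largely on *Tubb3* (463 FPKM in CTL, 510 in cKO) and the astrocyte sum on *Gja1* (138 and 174). Higher in cKO were 6 of the 7 oligodendrocyte lineage and 8 of the 10 neural progenitor markers. The part of these cells in the E11 ratios was not tested, and in bulk RNA fewer cells of a type and less RNA per cell cannot be told apart.

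At E14, none of the 10 genes differed 2-fold between the genotypes, in a comparison where 1.69% of all genes were at least 2-fold lower and 1.85% at least 2-fold higher. As deposited, 9 of the 10 were lower in cKO, as were 60.1% of all genes. *Atf3* was 1.76-fold lower in cKO (log2 ratio -0.81), *Asns* 1.68-fold (-0.75), *Chac1* 1.51-fold (-0.60) and *Atf4* 1.49-fold (-0.57). Of these, *Atf3*, *Asns* and *Chac1* passed 1.5-fold, as did 7.67% of all genes in this direction. With equal sums *Atf4* passed 1.5-fold too (-0.64), which brought the count to 4. *Asns* stayed past 1.5-fold under each scaling and pseudocount tried. *Chac1* did not with the all-gene median set to 0 (-0.52), upper-quartile scaling (-0.45), equal sums without the 10 highest entries (-0.52) or pseudocounts of 0.1 (-0.57) and 1 (-0.38), nor *Atf3* with a pseudocount of 1 (-0.27). The genes with the lowest E11 ratios were nearly level at E14, with log2 ratios of -0.12 for *Atf5*, -0.098 for *Nupr1*, -0.079 for *Ddit3* and -0.18 for *Trib3*. *Slc7a11* was at -0.0060, and *Sesn2* was 1.21-fold higher (0.27). The signs of such small ratios depended on scaling: with upper-quartile scaling of the libraries, those of *Atf5*, *Ddit3*, *Nupr1* and *Slc7a11* were 0.030, 0.074, 0.055 and 0.15. The median log2 ratio of the members was -0.15 beside -0.079 for all genes. The E14 values of *Nupr1* rest on an estimated 20 fragments in CTL and 21 in cKO, those of *Trib3* on 34 and 33, those of *Atf3* on 53 and 33 and those of *Chac1* on 146 and 106. These numbers bear on counting error only, and the spread between embryos is not known.

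**Figure D2:**
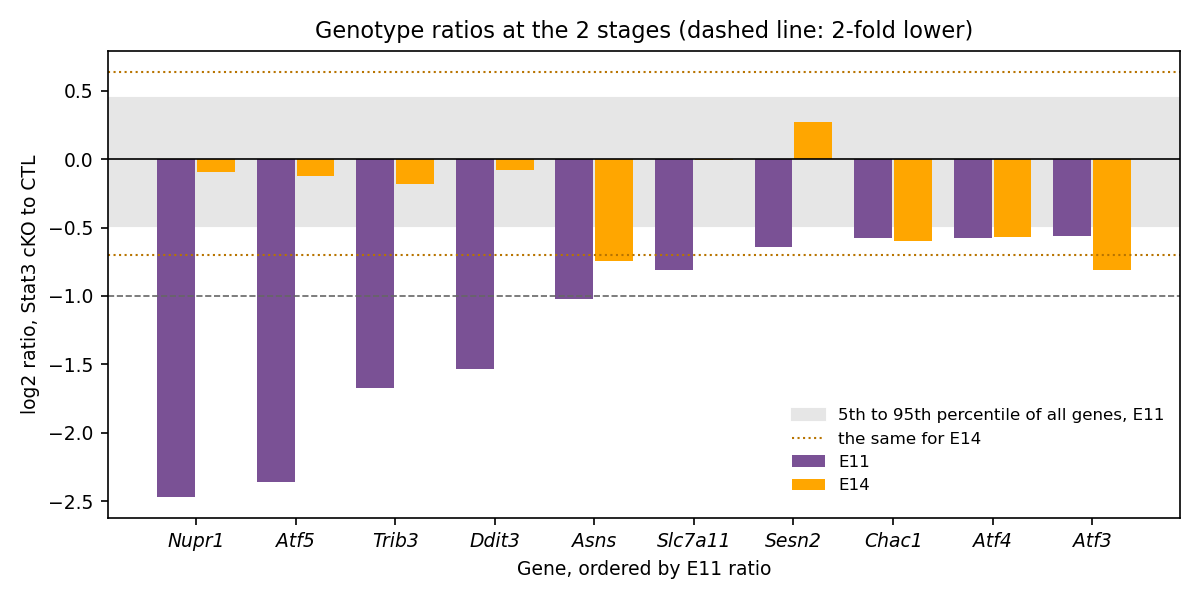
Log2 ratio between genotypes (Stat3 cKO over CTL) for each of the 10 genes at E11 (purple bars) and E14 (orange bars), with 1 library per group. The grey band spans the 5th to 95th percentile of all genes at E11 (-0.49 to 0.44) and the dotted lines the same at E14 (-0.70 to 0.64). All E11 bars lie below the band, while Asns and Atf3 alone pass the lower dotted line at E14.

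The ratios at the stages were then set side by side gene by gene. In *Atf4* the log2 ratio was -0.57 at both stages, and in *Chac1* it was -0.58 at E11 and -0.60 at E14. The ratios of *Atf3* and *Asns* differed between the stages by -0.25 and 0.28. By contrast, the ratio was higher at E14 than at E11 by 2.37 in *Nupr1*, 2.24 in *Atf5*, 1.49 in *Trib3*, 1.46 in *Ddit3*, 0.91 in *Sesn2* and 0.80 in *Slc7a11*. The E11 ratio enters each of these differences, and the largest belong to the genes whose E11 values led to the choice, so they are given as a description. With 1 library per group they could not be tested. The 6 genes with the motif TGATGNAA had E11 log2 ratios from -2.47 to -0.56, against -2.36 to -0.57 in the 4 genes without it. At E14 their medians were -0.39 with it and -0.10 without it. From E11 to E14 the medians were -5.32 with it and -2.69 without it in CTL, and -4.47 and -1.33 in cKO. This split of the genes was not tested.

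From E11 to E14, all 10 genes were at least 2-fold lower in both genotypes. Among all genes, 12.5% were at least 2-fold lower in CTL and 11.7% in cKO. At least 10-fold lower were 6 members in CTL, beside 3.09% of all genes, and 5 members in cKO, beside 2.67%. Each of these comparisons shares an E11 library with the comparison that led to the choice of the genes, so they are given as a description too. *Xist* and *Ddx3y* also separate the libraries of the cKO comparison, with *Xist* at 39.7 FPKM in E11 cKO, so embryo sex and stage cannot be told apart there. In CTL, *Nupr1* was 119-fold lower at E14, *Slc7a11* 85.5-fold, *Trib3* 60.2-fold and *Chac1* 26.4-fold. These folds lean on low E14 values: with a pseudocount of 1 the log2 ratio went from -6.90 to -5.50 in *Nupr1*, from -6.42 to -5.74 in *Slc7a11*, from -5.91 to -4.19 in *Trib3* and from -3.54 to -2.37 in *Atf3*. *Atf3* and *Atf5* were 11.6-fold and 11.0-fold lower, *Sesn2* 7.11-fold, *Ddit3* 5.88-fold, *Asns* 5.15-fold and *Atf4* 2.74-fold. In cKO, *Slc7a11* was 49.0-fold lower, *Chac1* 26.8-fold, *Nupr1* 23.1-fold, *Trib3* 21.4-fold and *Atf3* 13.8-fold. With a pseudocount of 1 their log2 ratios in cKO were -4.94, -4.02, -3.16, -2.68 and -2.15, in the same order. *Asns*, *Sesn2*, *Atf4*, *Atf5* and *Ddit3* were between 4.25-fold and 2.14-fold lower. *Atf4* thus had the smallest stage difference in CTL, and *Ddit3* and *Atf5* the smallest in cKO. The median log2 ratio of the members was -3.50 in CTL and -2.94 in cKO, beside 0.21 and 0.058 for all genes.

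Markers of other cell types moved with the stage comparison. The summed level of 8 mesenchymal markers was 1352 FPKM in E11 CTL, 1188 in E11 cKO, 20.1 in E14 CTL and 14.6 in E14 cKO, and each of the 8 was at least 2-fold lower at E14 in both genotypes. *Col3a1*, a collagen of connective tissue, was at 674 and 586 FPKM at E11. The 10 microglia and leukocyte markers summed to 12.7 and 8.33 FPKM at E11 against 1.24 and 1.11 at E14, with *Aif1* at 0 in E14 CTL. The 5 erythroid markers matched summed to 0.452 in E14 CTL and 0.677 in E14 cKO, below both E11 sums, and *Hba-x* was at 0 in E14 CTL. The 7 endothelial markers summed to 5.75 and 5.67 FPKM at E11 and to 1.5 and 2.28 at E14, with none at 0. The sums of neural lineages were higher at E14, though not every marker was. Those of neural progenitor markers were 1602 and 1767 FPKM at E11 and 7531 and 8176 at E14, in large part from *Fabp7* (516 and 594 at E11, 5245 and 5929 at E14), and 4 of the 10 markers, *Pax6*, *Hes1*, *Sox1* and *Prom1*, were lower at E14 in both genotypes. Those of 7 oligodendrocyte lineage markers were 73.0 and 94.2 at E11 and 567 and 550.1 at E14, with 5 of 7 higher in CTL and 6 of 7 in cKO. The 7 astrocyte markers summed to 161 and 195 at E11 and to 295 and 404 at E14, while *Gja1* went from 138 and 174 to 13.1 and 15.7. The 10 neuron markers summed to 803 and 835 at E11 and to 1261 and 1040 at E14, with 8 of 10 higher in CTL and 7 of 10 in cKO. The part of such cells in the stage ratios was not tested.

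**Figure D3:**
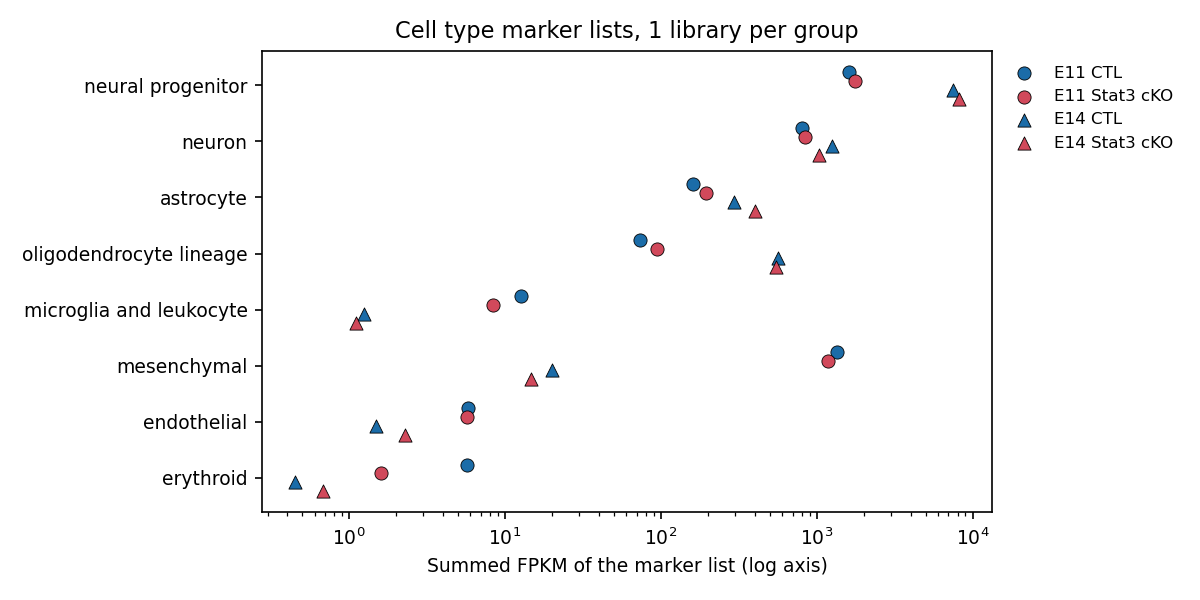
Summed FPKM (log axis) of each cell type marker list in the 4 libraries, with 1 point per library, circles for E11 and triangles for E14, and CTL in blue and Stat3 cKO in red. The mesenchymal sums lie at 1352 and 1188 at E11 and at 20.1 and 14.6 at E14, whereas the neural progenitor sums are higher at E14 than at E11.

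Other genes that ATF4 or CHOP is known to control were read from a list of 38 symbols, of which 37 were matched and 36 had a mean of at least 1 FPKM. At E11, 34 of the 36 were lower in cKO than in CTL, 6 of them at least 2-fold and none at least 2-fold higher, with a median log2 ratio of -0.79. Of all genes, 38.2% were lower and 1.12% at least 2-fold lower in this comparison, which is the one that led to the choice of the members. The count of 6 ranged from 4 to 9 over the scalings. *Cebpb*, a leucine zipper partner of ATF4, was at 17.1 FPKM in CTL and 3.02 in cKO (-2.50). *Slc7a3*, a carrier of arginine and lysine, was at 72.8 and 14.4 (-2.34). *Cth*, which makes cysteine from cystathionine, was at 41.1 and 13.3 (-1.62), and *Gdf15*, a secreted stress hormone, at 5.28 and 1.79 (-1.56). The exceptions were *Ddit4*, an mTORC1 inhibitor, at 72.4 and 91.6, and *Slc38a2*, a glutamine carrier, at 91.0 and 95.7. At E14, 24 of the 36 were lower, 4 at least 2-fold (*Mthfd2*, *Slc7a1*, *Eif4ebp1* and *Gdf15*), and 1 was at least 2-fold higher, with a median of -0.35, where 60.1% of all genes were lower, 1.69% at least 2-fold. That gene was *Ddit4*, at 25.8 FPKM in CTL and 55.9 in cKO. *Cebpb* was at 6.26 and 3.25 FPKM (-0.95), *Slc7a3* at 1.48 and 1.58 (0.098), and *Cth* at 9.38 and 9.44 (0.0099). From E11 to E14, 23 of the 36 were at least 2-fold lower in CTL and 15 in cKO, beside 12.5% and 11.7% of all genes. In cKO, 3 of the 36, *Psph*, *Gpt2* and *Phgdh*, were at least 2-fold higher, beside 10.1% of all genes, and none in CTL. These 3 were 2 with the all-gene median set to 0, 1 with upper-quartile scaling and 0 with equal sums, with or without the 10 highest entries. The count of 15 was 28 with equal sums and 26 with equal sums without the 10 highest entries.

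The mRNA levels of the upstream genes differed little at E11 by their median. They do not measure kinase activity or the phosphorylation of eIF2. Of 16 genes for the eIF2 kinases, the eIF2 and eIF2B subunits and the eIF2 phosphatase, 12 were higher and 4 lower in cKO, with a median log2 ratio of 0.052, where 61.8% of all genes were higher. With the all-gene median set to 0, 7 were higher and 9 lower. The kinase genes *Eif2ak1* (HRI), *Eif2ak2* (PKR), *Eif2ak3* (PERK) and *Eif2ak4* (GCN2) had log2 ratios between -0.028 and 0.22. The 1 gene at least 2-fold lower was *Ppp1r15a*, whose product GADD34 directs the phosphatase to eIF2 and which is itself induced by ATF4. It was at 9.22 FPKM in E11 CTL, 4.41 in E11 cKO, 3.31 in E14 CTL and 3.65 in E14 cKO, with E11 CTL again the highest. Its E11 call ended with equal sums. At E14, 14 of the 16 were lower in cKO, none 2-fold as deposited, with a median of -0.21, where 60.1% of all genes were lower. With upper-quartile scaling 10 were lower and 6 higher, and with equal sums 1 was 2-fold lower.

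Genes of neighbouring stress pathways were read in the same way. Of 20 ER chaperone and unfolded protein response genes, which the ATF6 and XBP1 branches control, 15 were higher and 5 lower in cKO at E11 and none differed 2-fold as deposited, with a median log2 ratio of 0.091, where 61.8% of all genes were higher. With equal sums 1 was at least 2-fold higher. With the all-gene median set to 0, 11 were higher and 9 lower. *Hspa5*, the main ER chaperone, was at 142 FPKM in E11 CTL and 157 in E11 cKO. At E14, 16 of the 20 were lower, again none 2-fold, with a median of -0.26, where 60.1% of all genes were lower. From E11 to E14 their median was 0.39 in CTL and 0.061 in cKO, and -0.16 and -0.80 with equal sums. *Slc7a11* is also a target of NRF2, the regulator of the oxidant response. Of the 12 genes on the list of NRF2 and its targets averaging 1 FPKM or more, 10 were higher in cKO at E11, with a median of 0.18, and 9 were lower at E14, with a median of -0.34, beside 61.8% of all genes higher at E11 and 60.1% lower at E14. None of them differed 2-fold between the genotypes as deposited at either stage, and 1 was 2-fold higher at E11 with equal sums. From E11 to E14 in CTL, 6 of the 12 had at least 2-fold higher values, as did 14.6% of all genes, and 4 with each other scaling. In cKO 2 of the 12 did, beside 10.1% of all genes, and 0 with equal sums and 1 with equal sums without the 10 highest entries. *Slc7a11* was 85.5-fold lower in CTL and 49.0-fold lower in cKO.

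**Figure D4:**
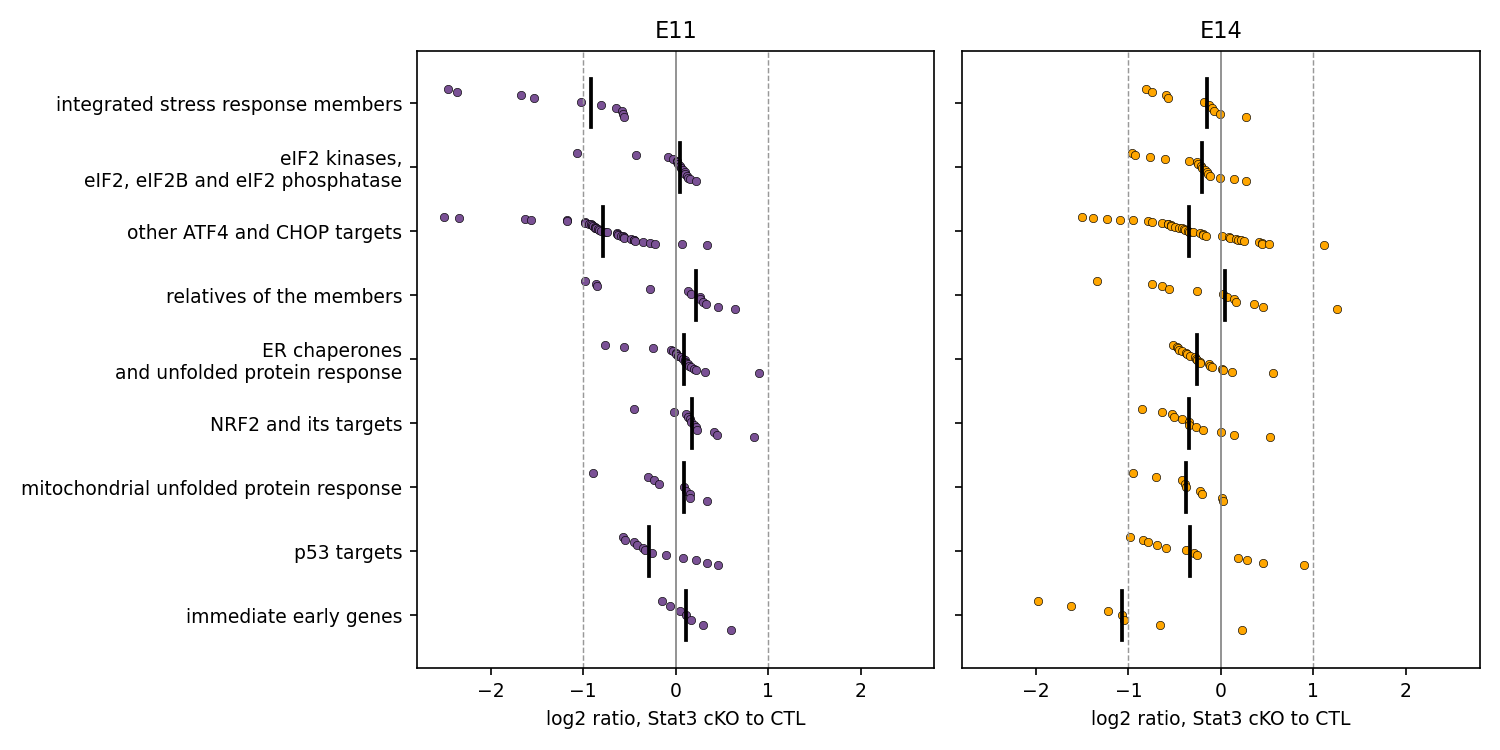
Log2 ratio between genotypes (Stat3 cKO over CTL), E11 on the left and E14 on the right, for the genes of each list averaging 1 FPKM or more, with 1 point per gene, a bar at the median and dashed lines at 2-fold. At E11 the medians are -0.92 for the 10 members and -0.79 for other ATF4 and CHOP targets, and 0.091 for the ER chaperones.

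Relatives of the members, from the ATF, tribbles, sestrin, CHAC and SLC7 families, were also read. Of the 12 that averaged 1 FPKM or more, 8 were higher and 4 lower in cKO at E11, none 2-fold as deposited, with a median log2 ratio of 0.21, where 61.8% of all genes were higher. At E14, 7 were higher and 5 lower, with a median of 0.044, where 60.1% of all genes were lower. With equal sums 5 were higher and 7 lower, with a median of -0.024. The lower genes at E11 were *Slc7a5*, *Jdp2*, *Atf6* and *Chac2*, and the first pair are also targets of ATF4. *Sesn3*, a sestrin like *Sesn2*, was at 19.1 FPKM in E11 CTL, 29.7 in E11 cKO, 13.4 in E14 CTL and 32.1 in E14 cKO, so it was higher in cKO at both stages. *Trib1*, a pseudokinase like *Trib3*, was at 1.96, 2.47, 2.04 and 0.810 FPKM in the same order. These were the relatives that differed 2-fold at E14, *Sesn3* at 1.26 and *Trib1* at -1.34 on the log2 scale, beside 1.85% of all genes higher and 1.69% lower by that margin.

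The genes most like *Atf5* and *Nupr1* over the 4 libraries were found among 9190 others with a mean of at least 5 FPKM, by the distance between log2 profiles centred on their own mean. Nearest to *Atf5* were *Aldh1l2* at a distance of 0.70, *Ddit3* at 0.77, *Cyb5r1* at 0.88, *Hbb-y* at 0.89 and *Pck2* at 1.02. *Aldh1l2*, a mitochondrial folate enzyme, was at 34.4 FPKM in E11 CTL, 9.14 in E11 cKO, 5.70 in E14 CTL and 5.15 in E14 cKO. Nearest to *Nupr1* were *Fibin* at 0.56, *Trib3* at 0.79, *Postn* at 1.17, *Slc7a11* at 1.21 and *Efemp1* at 1.27. These profiles hold the E11 values that led to the choice of the members, so the presence of *Ddit3*, *Trib3* and *Slc7a11* among the nearest genes is a description. The others included an embryonic globin (*Hbb-y*, at 22.4, 3.07, 1.87 and 0.852 FPKM) and matrix genes of connective tissue (*Postn*, at 120, 34.7, 3.14 and 1.71). Each distance rests on 4 libraries.

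Finally, the listed loci of *Atf5* and *Ddit3* are shared with neighbours. The *Atf5* locus, on chromosome 7 from 52067625 to 52104449 as listed, also holds *Tbc1d17* and a joined entry of *Nup62* and *Il4i1*, whose E11 log2 ratios were -0.052 and -0.22 beside -2.36 for *Atf5*. The *Ddit3* locus, on chromosome 10 from 126727848 to 126748842, also holds *Mars*, with -0.45 beside -1.53 for *Ddit3*. Where reads of neighbours overlap, how they were shared out is not given in the sources used here.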

How the data were processed

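RNA-seq of 4 libraries was analysed, 1 per group. The authors checked reads with FastQC and used the Tophat-Cufflinks workflow, and they deposited FPKM values without counts. The submitters' processing notes name Bowtie 0.12.2 and the builds mm8 and mm9, with no role given. Coordinates of the deposited loci are as listed, and those of promoter windows are of GRCm38.p6. The annotation is not given in the sources used here.

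Values were used as deposited, as plain ratios without a pseudocount. Shares over all genes use the 12449 entries with a mean of at least 1 FPKM, less those at 0 in either library, and a call is a 2-fold difference. With 1 library per group no p-value was computed. The members and gene lists were chosen with earlier results of these data known. *Jdp2* and *Slc7a5* stand in the lists of ATF4 targets and of relatives, *Bbc3* in those of ATF4 and p53 targets, and *Sesn1* in those of relatives and p53 targets. Named from each list were the genes 2-fold different between genotypes, at most 4 by size. The other list genes named, among them *Ddit4*, *Slc38a2*, *Hspa5*, *Mthfd2*, *Slc7a1*, *Eif4ebp1*, *Ier2*, *Psph*, *Gpt2*, *Phgdh*, *Pck2* and single cell type markers, were chosen after their values were seen. Fragment numbers were estimated from the lowest peak of FPKM times length over genes with a single GENCODE M21 transcript, and are approximate. Promoter windows came from RefSeq, and all 10 genes matched. The steps were tested on simulated data. Python 3.11.15, numpy 2.4.6, pandas 2.3.3, scipy 1.17.1 and matplotlib 3.10.9 were used. Alternatives were other thresholds, pseudocounts, filters and scalings.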

Additional observations from a re-analysis of the deposited data

Results flagged for a closer look

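The ratio of cKO to CTL pointed in opposite directions at E11 and E14, by at least 1.1-fold each, in 34 of the 130 genes of the members and pathway lists (26.2%), beside 22.7% of all 12419 genes with both ratios. Values are given for the 7 of them that are members or differed at least 2-fold at either stage. None of these differences was tested, since each group held 1 library. *Sesn2* was lower in cKO at E11 (log2 ratio -0.64) and higher at E14 (0.27), a difference of 0.91. Among the genes around the pathway, *Ppp1r15a* went from -1.07 to 0.14, a difference of 1.21. *Psph*, the last enzyme of serine synthesis, went from -1.17 to 0.42, a difference of 1.59, and *Pck2*, the mitochondrial PEP carboxykinase, from -1.17 to 0.22, a difference of 1.39. *Trib1* went the other way, from 0.33 to -1.34, a difference of -1.67. The immediate early genes *Fos* and *Egr1* did so as well, from 0.30 to -1.62 and from 0.60 to -1.07, with differences of -1.92 and -1.67.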

How the results depend on the processing

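No paired analysis was possible because each group held 1 library, and for the same reason no replicate could be left out. At E11 all 10 members were lower in cKO under each scaling and pseudocount tried, and 5 or 4 of them at least 2-fold. The count at E11 was 3 with a threshold of 3, and that at E14 was 3 with a threshold of 1.5. The members' median for E14 against E11 in cKO, as a log2 ratio, -2.94 as deposited, was -2.10 with a pseudocount of 1, -3.80 with each library scaled to a sum of 1000000 and -2.09 over the members with a mean of at least 5 FPKM. The other 111 counts and medians stayed within 1.5-fold. Among log2 ratios of single members, the ones that moved by over 1.5-fold were 9 stage ratios with a pseudocount of 1, and all 10 stage ratios in cKO with sums of 1000000. At E14, 9 members were lower as deposited, 8 once the all-gene median was centred on 0, 5 with upper-quartile scaling and 7 with each library scaled to the same sum without its 10 highest entries, a setting added after the data were seen; the median over the members was 0.0015 with upper-quartile scaling.

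The share of all genes at least 2-fold lower also depended on the settings. At E11 it was 1.12% as deposited, 0.696% with a minimum mean of 5 FPKM, 9.11% with none and 0.636% with sums of 1000000. At E14 it was 1.69%, with 4.82% for no minimum and 1.1% for upper-quartile scaling. For E14 against E11 it was 12.5% in CTL and 11.7% in cKO, with 7.47% and 7.67% for a minimum of 5, 22.5% and 38.7% for sums of 1000000, 21.7% and 22.8% without the 10 highest entries, and 25.3% in CTL for no minimum. Lower calls made up 84.2% of all 2-fold calls at E11, and 47.0% with sums of 1000000. They made up 47.7% at E14, from 28.5% to 57.8% over the scalings, and 46.0% in CTL and 53.6% in cKO between stages, up to 81.1% and 91.7%.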

Other observations

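Immediate early genes are induced within minutes by growth factor signalling. Of the 7 that averaged 1 FPKM or more, 5 were at least 2-fold lower in cKO than in CTL at E14 and none at E11, with median log2 ratios of -1.07 and 0.11. Of all genes, 1.69% were at least 2-fold lower at E14. The count of 5 was 3 with the all-gene median set to 0, with upper-quartile scaling and with equal sums without the 10 highest entries, since *Egr1* and *Ier2* lay just past 2-fold. *Ier3* was at 16.9 FPKM in E11 CTL, 18.3 in E11 cKO, 8.83 in E14 CTL and 2.24 in E14 cKO. *Fos* was at 0.952, 1.17, 6.74 and 2.19 FPKM in the same order, so that E14 CTL was the highest library. *Junb* was at 2.26, 2.03, 4.96 and 2.14 FPKM, *Egr1* at 1.12, 1.70, 3.85 and 1.84, and *Ier2* at 9.75, 10.1, 8.57 and 4.15. *Atf3*, which is often counted with these genes, was highest in E11 CTL.

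Of the 12 p53 targets, 8 were lower in cKO at each stage, none of them 2-fold as deposited, with median log2 ratios of -0.29 at E11 and -0.34 at E14. Of all genes, 38.2% were lower at E11 and 60.1% at E14, the latter close to the count of these targets. Of the 9 genes of the mitochondrial unfolded protein response, 5 were higher at E11 and 7 lower at E14, beside 61.8% and 60.1% of all genes, with medians of 0.092 and -0.38 and no 2-fold difference between genotypes as deposited.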
